A study of Mus musculus with 6 samples.

Results

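Integrins are the cell's receptors for the surrounding matrix and laminins are the main adhesive proteins of that matrix. The members are the 38 protein-coding mouse genes whose symbols name an integrin alpha or beta subunit (27 genes) or a laminin alpha, beta or gamma chain (11 genes), out of 20687 gene symbols in the table. Genes such as Itgbl1 and the Itgb1bp genes, which carry the name without being subunits, were left out. RNA was sequenced from 3 lung samples and 3 samples of the KP cell line, to compare the line with lungs that carry tumours grown from it. Mice of the C57BL/6 strain received 100000 KP cells through a tail vein, and their lungs were taken after 28 days and digested with collagenase. Each lung sample combined 3 mice and came from an independent experiment. The cell line samples are the same line, labelled C57BL/6 as well, prepared in triplicate. The labels do not give the genotype of the line. No lung without tumour cells was part of the comparison. Nothing states whether the cell line samples were grown separately, and if they were not, their spread is technical and p-values measure no more than that.

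An integrin is a pair of an alpha and a beta subunit that spans the membrane, binds matrix or another cell outside and links to actin inside. The partner decides the ligand: some pairs read collagen, some laminin, some the RGD sequence of fibronectin and vitronectin, and a set found on white blood cells binds adhesion molecules of other cells. A laminin is a trimer of an alpha, a beta and a gamma chain that polymerises into the basement membrane under epithelium and around vessels, where lung alveoli and capillaries meet. Levels are given in CPM, counts scaled to library size, for a gene across samples, and in TPM, counts per transcript length scaled to a common total, for levels per length between genes. The log2 difference of a gene is its fitted log2 fold change, lung over the line, with its standard error (SE). A gene is said to have risen, fallen or changed, always in lung against the cell line, where its adjusted p in edgeR's quasi-likelihood test over 15212 genes was below 0.05.

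The libraries held between 17786758 and 22862396 estimated counts, so that 3 counts, the limit that a count of 0 allows, came to between 0.131 and 0.169 CPM. Whole lung held the markers of its cell types. Alveolar type 2 markers summed to between 14170 and 20492 CPM there, against 79.7 to 86.7 CPM in the cell line. Nearly all of the cell line sum was Abca3, at 86.6, 79.7 and 81.6 CPM in replicates 1, 2 and 3. In the line Sftpc, Sftpb and Lamp3 stood at 0.0527 CPM or less, and Sftpa1 and Slc34a2 were at 0. Endothelial markers summed to between 1338 and 2040 CPM in lung and to between 9.96 and 13.4 CPM in the cell line. Fibroblast markers summed to between 796 and 2771 CPM in lung and to between 14.2 and 23.1 CPM in the cell line. In such bulk samples fewer cells of a type and less RNA per cell cannot be told apart. Lung replicate 2 stood apart by transcript length: against the mean of the other lung samples its median log2 ratio was 0.66 for genes in the shortest quartile of transcripts, -0.97 for the longest quartile and -1.36 for the tested integrin and laminin genes. Of the 36 members tested, 24 are in the longest quartile, and 35 were lowest in lung replicate 2 among the lung samples. Cell line replicate 1 stood at least 1.5-fold from the mean of the other cell line samples for 19 of the 36, against 37.4% of all genes tested.

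Of the 36 members tested, 18 rose and 5 fell, and 13 missed the threshold. Among all genes 48.8% were called, 31.3% higher and 17.5% lower, which is the background for the members' 18 and 5 of 36. With library size alone as scaling, the 4758 higher and 2664 lower genes became 5210 and 1728, and the median log2 difference of all genes went from 0.08 to 0.31, a shift of 0.23. The members' median was 1.31. All lung samples lay above all cell line samples for 18 members and below them for 8, against 35.6% and 26.5% of all genes. Itga11 and Itgb2l had too few counts for the expression filter and were not tested. At 1 CPM or more in all 3 samples, 35 of the 38 members were present in lung and 25 in the cell line. Without lung replicate 2 the integrin counts were 15 higher and 3 lower and the laminin counts 5 and 2.

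The laminin receptor subunits Itga3 and Itga6 were lower in whole lung than in the KP line. Per length and over all transcripts of each gene, the cell line carried about as much Itga3 as Itga6. These alpha subunits together with the common partner Itgb1 dominated its integrin RNA. Of the 4 subunits in this set, Itga3 and Itga6 fell, Itga7 rose and Itgb4 did not pass the test, with a median log2 difference of -1.31 against 0.08 over all genes.

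Itga3, the alpha subunit of the receptor for laminin-332 and laminin-511, stood at 209, 80.8 and 236 CPM in lung replicates 1, 2 and 3, and at 565, 1190.3 and 1222 CPM in cell line replicates 1, 2 and 3. Every cell line sample exceeded every lung sample, although replicate 1 of the line held less than its companions. The log2 difference was -2.50 (SE 0.50, edgeR adjusted p = 0.0038), and -2.22 without lung replicate 2. Itga6, whose product pairs with Itgb1 or with the hemidesmosome subunit Itgb4, stood at 219, 81.2 and 220.1 CPM in lung and at 352, 908 and 944 CPM in the cell line. The order of the samples was the same as for Itga3, with a log2 difference of -2.08 (SE 0.52, edgeR adjusted p = 0.0112). Itga7, the laminin receptor subunit of muscle, stood at 29.9, 13.0 and 36.4 CPM in lung and at 5.74, 8.81 and 8.01 CPM in the cell line, the opposite direction (1.81, SE 0.41, edgeR adjusted p = 0.00707). Smooth muscle and pericyte markers summed to between 419.8 and 492 CPM in lung and to between 12.7 and 16.8 CPM in the cell line, and their part in the Itga7 difference was not tested. Itgb4 stood at 50.6 ± 19.9 CPM (SD, n = 3) in lung and at 73.0 ± 34.3 CPM in the cell line, with overlapping groups (edgeR adjusted p = 0.373).

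Per length, Itga3 made up 13.5 ± 1.17% of the alpha subunit TPM in lung and 40.8 ± 0.85% in the cell line (SD, n = 3). Itga6 made up 21.7 ± 1.18% and 39.7 ± 4.97%. The highest integrin levels of the cell line were those of these subunits and Itgb1, at 371 ± 137 TPM for Itga3, 369.6 ± 163 TPM for Itga6 and 576 ± 121 TPM for Itgb1. The levels of Itga3 and Itga6 did not differ beyond their spread. Itgb1 lay above each by less than the sum of the SDs, yet above both within every cell line sample. In cell line replicates 1, 2 and 3 Itgb1 stood at 437, 635 and 657 TPM. Itga3 stood at 212, 449 and 450 TPM and Itga6 at 181, 457 and 471 TPM. In lung the corresponding levels were 73.2 ± 42.7, 113 ± 59.2 and 346 ± 190.2 TPM. The Itga6 levels and shares include Itga6-203, a transcript of 2721 bases without annotated coding sequence. Being short, it weighs more per length than in counts. The Itga6 level of coding transcripts is thus lower in both groups and was not computed. The likeness of Itga3 and Itga6 in the cell line, and their order in lung, were therefore not shown for coding transcripts.

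**Figure D1:**
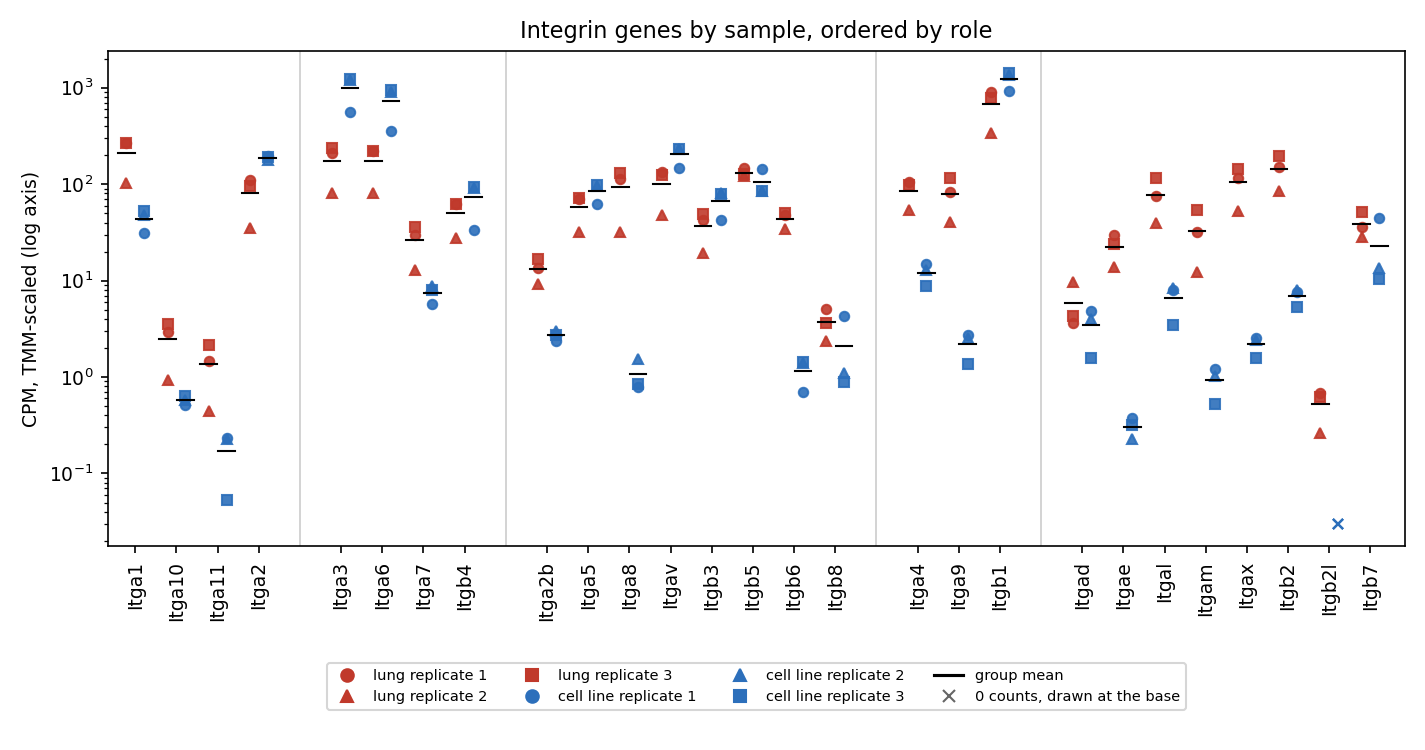
Levels of the 27 integrin genes in CPM on a log axis, in groups by role from left to right (collagen receptors, laminin receptors, RGD receptors, the alpha4, alpha9 and beta1 subunits, leukocyte integrins). Each point is a sample, black bars are group means over 3 samples, and a cross stands for 0 counts. Itga3 and Itga6 lie higher in the cell line, whereas Itga8, Itga9, Itgb6 and most leukocyte subunits lie far higher in lung.

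The transcripts of Itga3 were not in the same proportion in the groups. The annotated transcript Itga3-201 starts at the upstream promoter and Itga3-202 at a promoter inside the gene, and their annotated 5′ ends (GRCm38, minus strand) coincide with the starts of the RefSeq promoter table. Both promoters are printed because the share of the transcript that starts at the downstream promoter differed between lung and cell line. Each sequence gives the 250 bases before a start, 5′ to 3′ on the gene's strand, from RefSeq for GRCm38.p6: chr11:95076715-95076964 for start 1 and chr11:95069199-95069448 for start 2. Capitals mark GGGCGG (the Sp1 box) and GAGGAA (the PU.1 core), on either strand; TGANTCA (the AP-1 site) and TATAAA (the TATA box) were searched as well and had no match in either.
Itga3 start 1: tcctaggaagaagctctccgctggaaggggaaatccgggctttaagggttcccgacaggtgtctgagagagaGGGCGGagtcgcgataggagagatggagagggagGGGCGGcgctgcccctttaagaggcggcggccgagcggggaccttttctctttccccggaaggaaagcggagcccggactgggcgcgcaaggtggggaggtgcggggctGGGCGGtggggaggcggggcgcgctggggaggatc
Itga3 start 2: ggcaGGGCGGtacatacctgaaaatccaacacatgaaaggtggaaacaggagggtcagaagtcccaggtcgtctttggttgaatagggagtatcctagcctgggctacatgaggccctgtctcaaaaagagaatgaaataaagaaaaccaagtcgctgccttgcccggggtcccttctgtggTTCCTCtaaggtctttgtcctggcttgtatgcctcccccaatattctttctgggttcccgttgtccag
Start 1 has 67.6% G and C and 3 GGGCGG matches. Start 2 has 50.8% G and C, with 1 GGGCGG and 1 GAGGAA match. Among all 32851 promoters of the table cut to the same length, 32.7% hold GGGCGG, 23.3% GAGGAA, 6.75% TGANTCA and 12.4% TATAAA, so these letters are common and a match is only a description.

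Itga3-202 took 20.1, 63.4 and 33.9% of the Itga3 counts in lung replicates 1, 2 and 3, and 7.23, 3.57 and 3.35% in the cell line replicates. All lung samples lay above all cell line samples, with a difference of 34.4 percentage points between the means (exact permutation p = 0.1, two-sided, the smallest that 3 against 3 samples can give), and of 22.3 points without lung replicate 2. In CPM the transcript stood at 42.2, 51.2 and 79.9 in lung and at 40.9, 42.4 and 40.9 in the cell line. Itga3-201 stood at 166, 29.5 and 154 CPM in lung against 522, 1133 and 1160 CPM in the cell line. The lower gene level in lung thus lay in the transcript of start 1, and the estimates of single transcripts carry an assignment error that the table does not give.

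Itga6 also differed by transcript. The full-length transcripts Itga6-201 and Itga6-202 differ by an exon that sets the cytoplasmic tail, giving the forms called alpha-6A (1073 codons) and alpha-6B (1091 codons). The sequence is printed because it is a stretch that sets these forms apart: the coding part of exon 25 of Itga6-201, chr2:71853534-71853638 on the plus strand of GRCm38, with 105 of the exon's 130 bases in capitals and the last 15 bases of the preceding exon in lower case.
Itga6 exon 25: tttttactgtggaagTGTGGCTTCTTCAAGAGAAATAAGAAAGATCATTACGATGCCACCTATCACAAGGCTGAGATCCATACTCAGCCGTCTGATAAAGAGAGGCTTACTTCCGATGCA
Itga6-201, with this exon, took 87.2, 89.8 and 86.7% of the counts of the 2 forms in lung and 91.1, 93.9 and 96.4% in the cell line. Itga6-201 thus led in both groups, and the groups did not overlap (exact permutation p = 0.1, two-sided, the smallest possible here). The transcripts also differ at their annotated 5′ ends (71786978 for Itga6-201 and 71786940 for Itga6-202). No reads over junctions were given, so the exon itself was not observed. A further transcript, Itga6-203, has 3 exons from the end of the gene and no annotated coding sequence. It held 57.3, 75.3 and 58.1% of the Itga6 counts in lung and 35.4, 35.9 and 34.8% in the cell line (difference 28.2 points, exact permutation p = 0.1, two-sided). Counts of this transcript are part of the Itga6 level above, and the calls on Itga6 were the same when only protein-coding transcripts were summed.

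Collagen-binding subunits went in both directions. Itga1 and Itga10 rose, Itga2 fell, and Itga11 did not pass the expression filter, with a median log2 difference of 2.10 over the 3 tested. Itga1, a receptor subunit for the collagen IV of basement membranes, stood at 267, 103 and 265 CPM in lung and at 31.2, 47.5 and 53.2 CPM in the cell line. No sample of the cell line reached the lowest lung sample, and the log2 difference was 2.26 (SE 0.42, edgeR adjusted p = 0.00265). Itga2, the subunit that prefers fibrillar collagen I, stood at 110.3, 35.1 and 95.2 CPM in lung and at 196, 178 and 192 CPM in the cell line. It was lower in every lung sample, with a log2 difference of -1.23 (SE 0.41, edgeR adjusted p = 0.0359). The call was lost in several fits, in which the edgeR adjusted p was 0.0509 without lung replicate 3, 0.0787, 0.0563 and 0.0737 without cell line replicates 1, 2 and 3, and 0.0834 with library size alone as scaling. In those that left out a sample the log2 difference lay between -1.37 and -1.21. Itga10, a cartilage collagen receptor, stood at 2.48 ± 1.38 CPM in lung and at 0.574 ± 0.0595 CPM in the cell line (edgeR adjusted p = 0.0176). Its call was lost without lung replicate 1 (0.0647) or 3 (0.0573), and without cell line replicate 1 (0.0545), 2 (0.0615) or 3 (0.0536), while the log2 difference, 2.10 with all samples, lay between 1.74 and 2.12 in these fits. Itga11 had 88 counts over the lung samples and 10 over the cell line samples.

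RGD receptors held some subunits that the cell line shares with lung and some that were near 1 CPM there. Of 8 genes, Itga2b, Itga8 and Itgb6 rose, and Itga5, Itgav, Itgb3, Itgb5 and Itgb8 did not pass the test, with a median log2 difference of 0.57. Itga8, whose product binds nephronectin and fibronectin on mesenchymal cells, stood at 114, 31.8 and 131 CPM in lung and at 0.793, 1.56 and 0.843 CPM in the cell line. The ratio of the means was 86.8 and the log2 difference 6.44 (SE 0.65, edgeR adjusted p = 0.00013). Itgb6, the epithelial partner of Itgav that releases TGF-beta from its latent complex, stood at 44.0 ± 8.68 CPM in lung and at 1.17 ± 0.406 CPM in the cell line (log2 difference 5.24, SE 0.38, edgeR adjusted p = 3.65e-05). Itga2b, the platelet fibrinogen receptor subunit, stood at 13.1 ± 3.75 against 2.70 ± 0.309 CPM (log2 difference 2.27, SE 0.33). Platelet and megakaryocyte markers summed to between 37.6 and 49.2 CPM in lung and to between 4.32 and 6.30 CPM in the cell line, and their part in the Itga2b difference was not tested.

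Itgb5, a vitronectin receptor subunit and the highest RGD receptor gene of lung per length at 92.9 ± 21.1 TPM, stood at 146, 122 and 128 CPM in lung and at 142, 85.8 and 84.0 CPM in the cell line. The groups overlapped through cell line replicate 1. Its log2 difference of 0.34 (SE 0.28, edgeR adjusted p = 0.344) passed without that replicate (0.62, edgeR adjusted p = 0.0486). Itgb8, another partner of Itgav in TGF-beta release, stood at 3.70 ± 1.39 against 2.11 ± 1.93 CPM (log2 difference 0.80, edgeR adjusted p = 0.338) and likewise passed without cell line replicate 1 (1.88, edgeR adjusted p = 0.0202). Itga5, the classical fibronectin receptor subunit, stood at 58.1 ± 22.8 against 84.7 ± 19.4 CPM and Itgb3 at 37.1 ± 15.9 against 67.0 ± 21.4 CPM (edgeR adjusted p = 0.244 and 0.119). Itgav, the alpha subunit shared by most RGD receptors, stood at 101 ± 47.0 against 203 ± 48.4 CPM. Its groups did not overlap, and its log2 difference of -1.0 (SE 0.41) missed the threshold in edgeR (adjusted p = 0.0768) and passed in DESeq2 (adjusted p = 0.0352).

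Itgav held the largest difference in transcript use among the members compared, a choice made after the shares were seen. Itgav-202 lacks exons 5 and 6 of Itgav-201, 62 and 46 bases at chr2:83761868-83761929 and chr2:83763652-83763697 on the plus strand of GRCm38. The 108 bases keep the reading frame, so that Itgav-202 has 1008 codons against 1044. They are printed in capitals, exon 5 followed directly by exon 6, because they are the internal stretch that sets the transcripts apart, with 15 bases of the flanking exons in lower case.
Itgav exons 5 and 6: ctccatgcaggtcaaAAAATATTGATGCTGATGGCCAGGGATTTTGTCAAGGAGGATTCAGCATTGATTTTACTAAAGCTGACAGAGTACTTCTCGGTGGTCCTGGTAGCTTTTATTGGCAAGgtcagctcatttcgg
The transcript without these bases held 51.4, 77.0 and 65.4% of the Itgav counts in lung and 0, 2.93 and 0% in the cell line. Every lung sample lay far above every cell line sample, with a difference of 63.6 points (exact permutation p = 0.1, two-sided, the smallest possible here), and of 57.4 points without lung replicate 2. Itgav-201 held 46.7, 15.9 and 33.5% in lung and 98.4, 95.3 and 98.4% in the cell line. The table gives no reads over junctions, and the transcripts also differ at their annotated 5′ ends (83724397 for Itgav-201 and 83724555 for Itgav-202), so the exons themselves were not observed.

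Shares could be compared for 25 genes with at least 20 counts in every sample, of which 13 had 2 or more transcripts at 10% or above in a sample. In 14 genes a transcript's shares did not overlap between the groups, and in 6 of them (Itga3, Itga6, Itgal, Itgav, Itgb5 and Lamc1) the means differed by at least 10 points. Among all 11275 genes with that many counts the shares were 48.1% and 29.6%, so both counts of members lay near the background. Itgb5-207, an 11-exon transcript from the end of the gene, held 36.8, 52.5 and 41.7% in lung and 25.7, 20.5 and 18.0% in the cell line. For Itgal, whose cell line counts were few, Itgal-203 with 21 exons held 44.7, 39.8 and 43.8% in lung and 0, 23.9 and 0% in the cell line. Lamc1-204, with 3 exons, held 13.1, 36.3 and 13.9% in lung and 0% in each cell line sample. Lung replicate 2, the library low in long transcripts, had the highest share of Itgav-202, Itga3-202, Itga6-203, Itgb5-207 and Lamc1-204 alike. The part of RNA length in these shares was not tested, and for each of these transcripts the lung samples other than replicate 2 also exceeded all cell line samples.

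**Figure D2:**
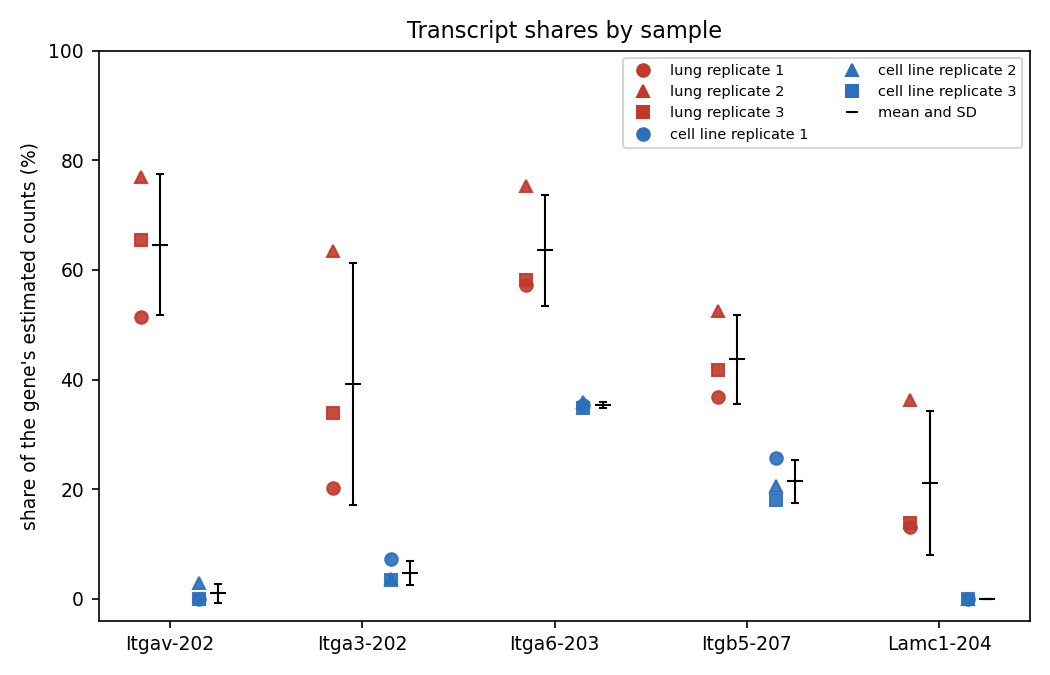
Share of the gene's estimated counts, in percent, held by each of 5 transcripts. Points are samples, and horizontal ticks with bars are means with SD over 3 samples per group. The 3 lung samples lie above the 3 cell line samples for each transcript, and lung replicate 2 (triangle) is the highest.

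Among Itga4, Itga9 and their common partner Itgb1, the alpha subunits rose and Itgb1 did not pass the test. Itgb1, the partner of most matrix-binding alpha subunits, stood at 903, 341 and 775 CPM in lung and at 923, 1354 and 1409.7 CPM in the cell line. Its groups did not overlap, though the highest lung and the lowest cell line sample lay close together, and the log2 difference was -0.87 (SE 0.41, edgeR adjusted p = 0.116). It was the most abundant beta subunit in both groups, with 53.9 ± 7.95% of beta subunit TPM in lung and 81.2 ± 6.06% in the cell line. Itga9, which binds tenascin-C and VCAM-1 and serves lymphatic valves, stood at 83.1, 40.2 and 116 CPM in lung and at 2.71, 2.53 and 1.37 CPM in the cell line. Each lung sample was at least an order of magnitude above each cell line sample (log2 difference 5.17, SE 0.50, edgeR adjusted p = 0.000108). Itga4, the VCAM-1 receptor subunit of lymphocytes and monocytes, stood at 85.4 ± 27.6 against 12.1 ± 3.05 CPM (log2 difference 2.82, SE 0.35, edgeR adjusted p = 0.000364).

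Leukocyte integrins were mostly higher in lung: 5 of 7 tested genes rose, and Itgad and Itgb7 did not pass, with a median log2 difference of 4.38. Itgb2, the beta subunit of LFA-1, Mac-1 and CD11c/CD18, stood at 152, 84.7 and 197 CPM in lung and at 7.56, 8.01 and 5.27 CPM in the cell line. Lung exceeded the cell line in all samples (log2 difference 4.38, SE 0.40, edgeR adjusted p = 7.99e-05). Itgae, the CD103 subunit that holds T cells and dendritic cells to E-cadherin on epithelium, stood at 29.5, 13.7 and 24.0 CPM in lung and at 0.373, 0.230 and 0.316 CPM in the cell line. It had the largest log2 difference of this set, 6.15 (SE 0.45, edgeR adjusted p = 3.73e-05). Itgax (CD11c), Itgam (CD11b) and Itgal (CD11a) had log2 differences of 5.57, 5.12 and 3.54, with lung means of 104 ± 47.2, 32.5 ± 20.7 and 77.0 ± 38.4 CPM against 2.19 ± 0.532, 0.926 ± 0.356 and 6.61 ± 2.72 CPM. Per length, Itgax was the third of the alpha subunits in lung, at 9.92 ± 0.632% of their TPM, and stood at 0.159 ± 0.111% in the cell line. Itgb2l had 35 counts over the lung samples and 0 over the cell line samples, at least 10.1-fold higher in lung against 3 counts over the group. Itgad stood at 5.89 ± 3.30 against 3.47 ± 1.68 CPM (edgeR adjusted p = 0.273).

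Ptprc, the pan-leukocyte marker CD45, stood at 247, 173 and 265 CPM in lung and at 44.8, 36.4 and 22.8 CPM in the cell line samples. Monocyte and macrophage markers summed to between 6517 and 8580 CPM in lung against 119 to 245 CPM in the cell line. In lung most of that sum was Lyz2, at 5919, 7943 and 6413 CPM. In cell line replicates 2 and 3 most of it was Mrc1, at 163 and 173 CPM. Mrc1 did not differ past the threshold between the groups (edgeR adjusted p = 0.693). T cell markers summed to between 137 and 181 CPM in lung against 8.90 to 19.2 CPM in the cell line. The part of leukocyte numbers in the differences of the leukocyte integrins was not tested.

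Itgam and Itgax lie on the same strand of chromosome 7, and their promoters are printed because both genes rose. Each gives the 250 bases before the RefSeq start on the plus strand of GRCm38.p6, chr7:128062390-128062639 for Itgam and chr7:128129300-128129549 for Itgax. Capitals mark the same motifs as above.
Itgam promoter: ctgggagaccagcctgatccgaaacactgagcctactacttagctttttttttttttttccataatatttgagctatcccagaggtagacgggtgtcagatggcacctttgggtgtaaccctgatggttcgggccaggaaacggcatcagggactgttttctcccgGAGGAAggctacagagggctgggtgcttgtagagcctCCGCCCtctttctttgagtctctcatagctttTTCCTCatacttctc
Itgax promoter: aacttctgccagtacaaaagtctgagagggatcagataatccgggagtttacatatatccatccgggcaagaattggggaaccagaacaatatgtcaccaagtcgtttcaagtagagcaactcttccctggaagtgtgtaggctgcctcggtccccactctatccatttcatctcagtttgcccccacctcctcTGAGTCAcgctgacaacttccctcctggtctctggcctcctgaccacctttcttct
Itgam has 2 GAGGAA matches, the letters of the core bound by the myeloid factor PU.1, and 1 GGGCGG match. Itgax has 1 TGANTCA match and none of the other letters in this window. The shares of all promoters that hold each motif are those given above for Itga3.

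Leukocyte integrin RNA was also present in the cell line samples, and it differed between those samples, as did markers of several other cell types. B and plasma cell markers summed to 105, 96.5 and 55.7 CPM in cell line replicates 1, 2 and 3, against 193, 391 and 229 CPM in lung. The ratio of replicate 3 to 2 had a median of 1.002 over the 12831 genes with 20 or more counts in the pair, with quartiles of 0.941 and 1.05. It ran from 0.505 to 0.693 for the 7 B and plasma cell markers (median 0.597) and from 0.203 to 0.915 for the 6 T cell markers (median 0.562), and was 0.625 for Ptprc. The medians were 0.725 for 6 monocyte and macrophage, 0.723 for 6 endothelial and 0.703 for 5 fibroblast markers, whose highest ratios passed 1. For Itga4 and the 6 leukocyte integrins tested other than Itgae it ran from 0.392 for Itgad to 0.766 for Itgb7, with a median of 0.653. For 9 abundant other members, picked after their values were seen, it ran from 0.981 to 1.08, with a median of 1.03. Members outside these sets with few counts in the line went both ways. Itga8 stood at 0.843 CPM in replicate 3 against 1.56 in replicate 2, Itga9 at 1.37 against 2.53, and Lama3 at 0.738 against 0.634. The 95% exact binomial interval, which covers counting error only, lay below 1 for Itgal (0.308 to 0.565), Itgb2 (0.504 to 0.857) and Itga4 (0.559 to 0.845), and reached above 1 for Itgam (0.2096 to 1.16) and Itgax (0.395 to 1.07). The leukocyte integrins and the leukocyte markers had few counts here, such as 30 and 42 for Itgax in replicates 3 and 2. The source of this RNA in the cell line samples was not tested.

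**Figure D3:**
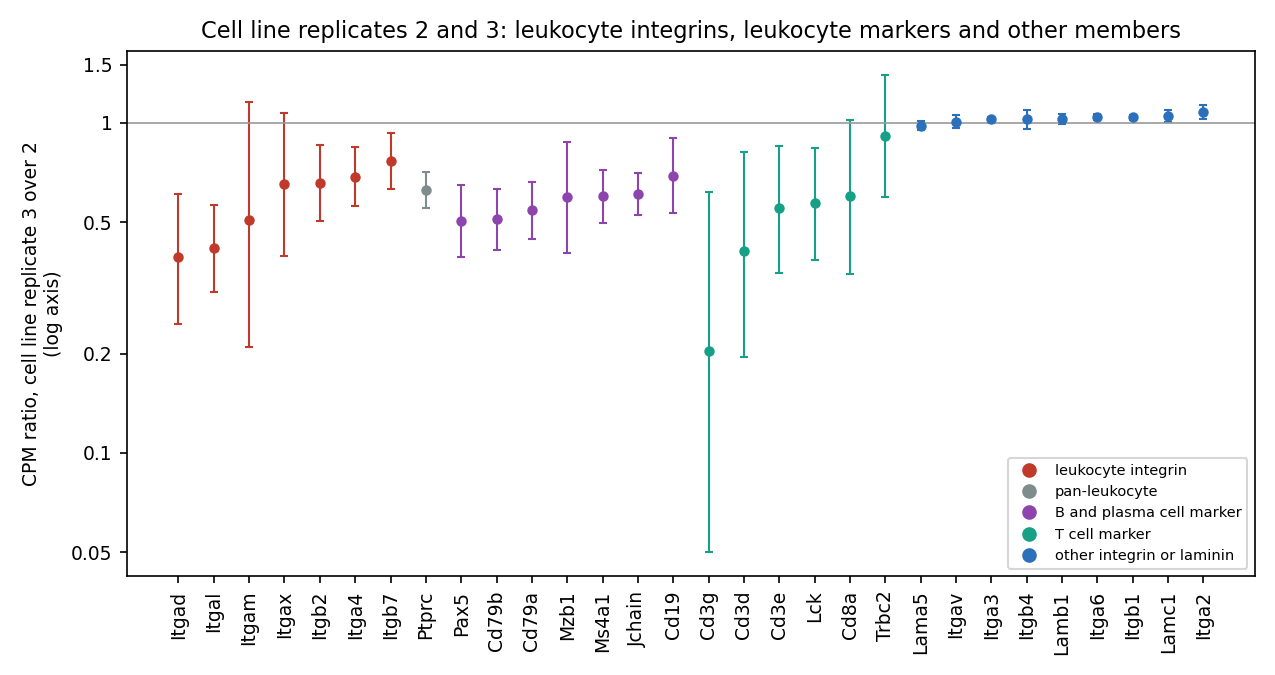
Ratio of CPM in cell line replicate 3 to replicate 2 on a log axis, for leukocyte integrins, CD45 (Ptprc), lymphocyte markers and 9 other members, with 95% exact binomial intervals for counting error. The leukocyte integrins lie between 0.392 and 0.766. The 9 other members, abundant ones picked after their values were seen, lie near 1, and members with few counts in the line are not drawn among them.

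Itgb7, the beta subunit that pairs with Itga4 or Itgae for homing to mucosa, did not pass the test. It stood at 36.0, 28.6 and 51.7 CPM in lung and at 44.9, 13.4 and 10.3 CPM in the cell line, so that cell line replicate 1 lay among the lung samples. The log2 difference was 0.76 (SE 0.55, edgeR adjusted p = 0.284), and 1.70 without that replicate (edgeR adjusted p = 0.00811). Cell line replicate 1 held 3.79 times the mean of the other cell line samples for Itgb7. This ratio was 1.51 for Ptprc, 1.14 to 1.51 for the B and plasma cell markers and 0.872 to 2.16 for the T cell markers.

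Laminin alpha chains rose in 4 of 5 genes, with log2 differences from 5.28 to 8.94, and Lama5 fell. Their median of 5.52 was the highest of the role groups. The alpha chain sets where a laminin is found, and of these chains the cell line held Lama5 almost alone. Lama4, the alpha chain of vessel and mesenchymal basement membranes, stood at 87.3, 29.9 and 93.6 CPM in lung and at 0.233, 0 and 0.158 CPM in the cell line, 8 counts in all. Its log2 difference was 8.94 (SE 0.79, edgeR adjusted p = 7.1e-05), and 9.63 without cell line replicate 1. Lama5, the alpha chain of epithelial and endothelial laminin-511 and laminin-521, stood at 190.1, 71.5 and 205 CPM in lung and at 1068, 475 and 466 CPM in the cell line. Replicate 1 of the line held more than its companions, and even the lowest cell line sample exceeded all lung samples (log2 difference -2.11, SE 0.51, edgeR adjusted p = 0.00995). Without cell line replicate 1 the log2 difference of Lama5 was -1.61 (edgeR adjusted p = 0.0303).

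Lama2, the chain of muscle and interstitial basement membranes, stood at 39.7 ± 21.3 CPM in lung and at 1.0 ± 0.649 CPM in the cell line (log2 difference 5.28, and 5.94 without cell line replicate 1). Lama3, the chain of the epithelial anchoring laminin-332, stood at 50.4 ± 26.4 against 1.08 ± 0.684 CPM (5.52, and 6.17 without cell line replicate 1). Lama1, best known from embryonic basement membranes, stood at 6.27 ± 2.94 CPM in lung, and 4 counts were found over the cell line samples, below the level that 3 counts give in each library (6.38, SE 0.66). The edgeR adjusted p was 0.000373, 0.000235 and 0.000141 for Lama2, Lama3 and Lama1.

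Per length, Lama5 made up 46.6, 60.6 and 47.8% of alpha chain TPM in lung replicates 1, 2 and 3, and 99.5, 99.6 and 99.4% in the cell line. In lung the remainder was Lama4 (23.5 ± 1.38%), Lama3 (12.0 ± 3.34%), Lama2 (11.5 ± 3.60%) and Lama1 (1.31 ± 0.194%), of which Lama3 and Lama2 did not differ beyond their spread. TPM divides each transcript by its own length, so short transcripts weigh more than in counts. Lama5-201, of 11388 bases, held 95.26, 83.79 and 93.85% of the Lama5 counts in lung replicates 1, 2 and 3. Its part of the Lama5 TPM in lung is lower and was not computed. Dividing by the longest transcript instead gave a lower Lama5 share in lung, given further below. The summed alpha chain level was 124 ± 54.9 TPM in lung and 105 ± 55.4 TPM in the cell line, which lay within the spread of both groups.

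**Figure D4:**
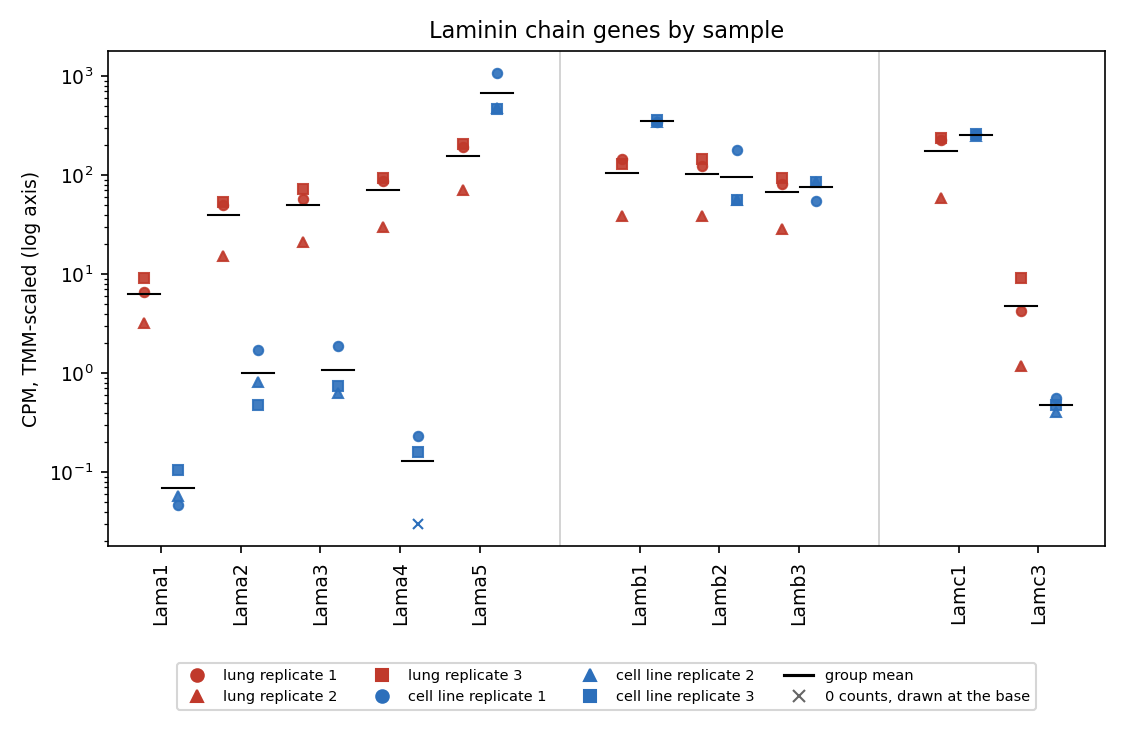
Levels of 10 laminin chain genes in CPM on a log axis, with alpha, beta and gamma chains from left to right. Points are samples, black bars are group means over 3 samples and a cross stands for 0 counts. Lama1 to Lama4 are near the base in the cell line, whereas Lama5, Lamb1 and Lamc1 exceed 100 CPM in all 3 of its samples.

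Beta and gamma chains pair with any of several alpha chains, and most were found at 1 CPM or more in both lung and cell line. Of the 3 beta chains Lamb1 fell and Lamb2 and Lamb3 did not pass the test (median log2 difference -0.14). Among gamma chains Lamc3 rose and Lamc1 did not pass. Lamb1, the beta chain of laminin-111, laminin-411 and laminin-511, stood at 144, 38.9 and 129 CPM in lung and at 348, 346 and 356 CPM in the cell line. The cell line samples were closely alike and all above lung, with a log2 difference of -1.75 (SE 0.46, edgeR adjusted p = 0.0142). Lamb2, the beta chain of the neuromuscular and glomerular laminin-521, stood at 125, 38.6 and 146 CPM in lung and at 178, 56.6 and 55.9 CPM in the cell line, where the groups overlapped and the log2 difference of 0.09 (SE 0.60, edgeR adjusted p = 0.912) turned negative when single libraries were left out. Lamb3, the beta chain of laminin-332, stood at 68.3 ± 34.8 against 75.3 ± 17.5 CPM, with a log2 difference of -0.14 (edgeR adjusted p = 0.807) that was 0.10 with library size alone.

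Lamc1, the gamma chain of most laminins, stood at 226, 59.0 and 238 CPM in lung and at 262, 247 and 259 CPM in the cell line. All cell line samples lay above the lung samples, by little for lung replicates 1 and 3, and the log2 difference was -0.56 (SE 0.48, edgeR adjusted p = 0.36). Lamc3, a gamma chain known from cortex and retina, stood at 4.19, 1.19 and 9.04 CPM in lung and at 0.560, 0.403 and 0.474 CPM in the cell line. It was low in both and uneven in lung, with a log2 difference of 3.30 (SE 0.74, edgeR adjusted p = 0.00697), and 2.48 without lung replicate 3.

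The chains of a trimer were not at matched levels in the cell line. For laminin-332, per length, Lamb3 stood at 33.2 ± 7.38 TPM there, while Lama3 stood at 0.245 ± 0.154 TPM. In lung Lamb3 stood at 33.4 ± 20.2 TPM and Lama3 at 16.1 ± 10 TPM. For laminin-511 in the cell line, Lama5 stood at 105 ± 55.1, Lamb1 at 108 ± 1.57 and Lamc1 at 60.6 ± 1.99 TPM, and the levels of Lama5 and Lamb1 did not differ beyond their spread. Within its family Lamb1 held 31.2 ± 2.98% of beta chain TPM in lung and 61.4 ± 5.69% in the cell line, and Lamb2 held 40.2 ± 2.15% and 19.4 ± 11.5%.

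**Figure D5:**
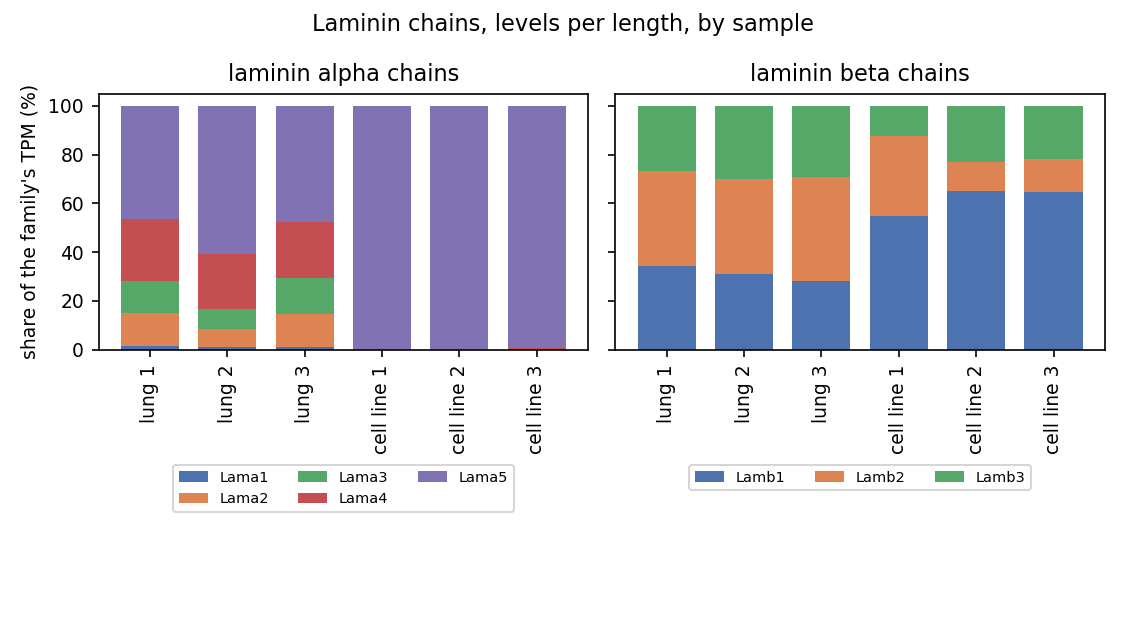
Share of each laminin chain in the TPM of its family, alpha or beta, in percent, for each of the 6 samples, with each transcript divided by its own length. Lama5 fills 99.4% or more of the alpha chain bar in the cell line samples, and between 46.6 and 60.6% in lung.

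Partners of integrins and laminins were read from lists of known genes. Among all genes tested 31.3% were higher in lung and 17.5% lower, with a median log2 difference of 0.08. No list was tested against these shares. Among 36 proteins of integrin activation and adhesion, 9 rose, 9 fell and 18 did not pass, with a median log2 difference of -0.06. Neither direction led. Tns1, a tensin that links fibrillar adhesions to actin, stood at 421 ± 211 CPM in lung and at 15.2 ± 1.62 CPM in the cell line (4.79, SE 0.48). Fermt2, or kindlin-2, an activator of beta subunits, stood at 187 ± 42.2 against 69.5 ± 20.9 CPM (1.43, SE 0.32). Tns4, a short tensin of epithelial cells that lacks the actin-binding part, went the other way, at 61.4, 34.9 and 61.0 CPM in lung and at 472, 732 and 725 CPM in the cell line. Its groups were far apart, with a log2 difference of -3.62 (SE 0.36, edgeR adjusted p = 0.000125). Other abundant members that fell were Flna, at 808 ± 290 against 2959 ± 753 CPM (-1.87, SE 0.40), and Actn4. Actn4 stood at 292 ± 66.5 against 729 ± 186 CPM (-1.32, SE 0.33). Flna and Actn4 were chosen after their values were seen.

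Basement membrane partners of laminin rose in 13 of 23 genes and fell in 3, with a median log2 difference of 2.30. Among all genes 31.3% rose and 17.5% fell. Bcam, a laminin alpha-5 receptor of the immunoglobulin family, stood at 354 ± 89.4 against 21.8 ± 1.91 CPM (4.02, SE 0.31), opposite in direction to Lama5 itself. Col4a3, a collagen IV chain of the alveolar basement membrane, stood at 84.3 ± 50.4 against 0.233 ± 0.131 CPM (8.43, SE 0.78). Tinagl1, a secreted basement membrane protein that binds integrins, stood at 128 ± 17.6 against 454 ± 44.9 CPM and fell (-1.82, SE 0.26). Col4a1 and Col4a2, the collagen IV chains of nearly all basement membranes, stood at 793 ± 477 against 671 ± 173 CPM and at 490 ± 290.4 against 349 ± 101 CPM (edgeR adjusted p = 0.736 and 0.474), and were chosen after their values were seen.

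Hemidesmosome and tetraspanin partners numbered 9 tested genes, of which 3 rose and 2 fell (median -0.12). These counts lay near the background of all genes, 31.3% higher and 17.5% lower. The tetraspanins Cd82 and Cd81, membrane organisers of laminin-binding integrins, stood at 142 ± 0.787 against 26.3 ± 3.09 CPM and at 262 ± 26.0 against 136 ± 6.47 CPM. The tetraspanins Cd151, Cd9 and Tspan8 of the list did not pass (edgeR adjusted p = 0.687, 0.63 and 0.0572). Cd151 stood at 170 ± 4.98 against 185 ± 16.8 CPM. These genes were chosen after their values were seen. Dst, whose epithelial form ties Itgb4 to keratin, stood at 97.7 ± 44.4 against 426 ± 129 CPM and fell (-2.13, SE 0.44, edgeR adjusted p = 0.00432). Surface ligands of leukocyte integrins rose in 6 of 11 tested genes, and 5 did not pass (median 1.05). Icam1, the ligand of LFA-1 and Mac-1, stood at 305 ± 94.5 against 32.7 ± 0.623 CPM (3.22, SE 0.31), and Vcam1, the ligand of Itga4 pairs, at 307 ± 89.7 against 88.0 ± 4.55 CPM (1.80, SE 0.29). Cdh1, or E-cadherin, the ligand of the Itgae pair, stood at 389 ± 194 against 449 ± 29.1 CPM (edgeR adjusted p = 0.704) and was chosen after its values were seen. Genes of latent TGF-beta, the cargo of the Itgav pairs with Itgb6 and Itgb8, rose in 6 of 9, and 3 did not pass (median 1.84). Ltbp2, a matrix microfibril protein of that family that does not bind latent TGF-beta itself, stood at 119 ± 54.3 against 5.41 ± 1.10 CPM (4.46, SE 0.44), and Ltbp4 at 193 ± 116 against 68.6 ± 2.25 CPM (1.49, SE 0.50, edgeR adjusted p = 0.039).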

How the data were processed

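The authors deposited estimated counts per transcript for 6 samples, 3 of KP tumour-bearing lung and 3 of the KP cell line. Salmon 1.4.0, FastQC 0.11.9, DESeq2 1.32.0 and GRCm39 are named per the submitters' processing notes, and the annotation release is not given in the sources used here. A stranded mRNA kit and an amplification step stand in the labels' protocols. Of 76776 transcripts, 76521 (99.67%) matched GENCODE M21 (GRCm38) and were summed to gene symbols, 159 of them to the members, and the other 255, with 0.107 to 0.416% of a sample's counts, were left out. Sums were rounded and tested with edgeR 4.0.16 (R 4.3.3; TMM, expression filter by group, robust quasi-likelihood F test, group only), and p-values were adjusted by Benjamini-Hochberg over 15212 genes at 0.05. Log2 differences are lung over cell line, errors are SD over 3 samples unless called SE, and intervals cover counting error only. TPM was computed from annotated lengths, and transcript shares were compared by exact permutation over samples. The test was tried on simulated data. Alternatives were other scalings and filters, DESeq2 1.42.0, limma-voom (limma 3.58.1), a replicate block, a 2-fold minimum, coding transcripts only and left-out samples.

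The members and the gene lists were chosen with earlier results of these data known. Values in every sample are given, by role, for the members highest per length in lung or cell line, those that fell and the largest rise, and from each partner list for the 2 highest in its main direction and the strongest in the other. Where rises and falls were equal in number, rises were taken as the main direction. Genes named beyond that rule are said to be so, or given by group means. Promoters came from RefSeq (24 of 38 members matched). The values of 1 member, counted in the totals, are not reported here.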

Additional observations from a re-analysis of the deposited data

How the results depend on the processing

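Of the 36 members fitted, 36 kept direction and side of the threshold with DESeq2 size factors, with no filter on low counts, with limma-voom and with coding transcripts only, and 35 with the DESeq2 test, where Itgav passed. With library size alone Itga2 lost its call, and 1728 genes in all were lower. With 10 or more counts in all 6 samples, 31 members were left, Itga2 lost its call, 1 laminin was higher, and 2555 genes in all were higher and 1701 lower, because that filter removes genes near 0 in the cell line. Without cell line replicate 1 and lung replicate 2 together, 18 integrins were higher and 8 lower, 6 laminins were higher and 3 lower, and 5425 genes in all were lower. That fit takes its spread from the closest samples of each group, so its counts are not comparable with the others.

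Leaving out single samples gave 12 to 17 higher and 2 to 3 lower integrins, with 5 higher and 2 lower laminins each time. Lamb3 changed sign to 0.10 with library size alone, 0.0386 with the stricter filter, 0.16 without lung replicate 2 and 0.0397 without both libraries, with a range of -0.44 to 0.16 over single samples left out. Lamb2 changed sign to -0.07 and -0.24 without lung replicates 1 and 3, and to -0.24 without cell line replicate 2 or 3, with a range of -0.24 to 0.86 over single samples left out. Dividing by the longest transcript gave shares in lung of 39.7% for Lama5, 35.5% for Lamb1 and 15.1% for Itga3, and in the cell line of 99.6% for Lama5 and 44.1% for Itga3. The shares of Itgav-202, Itga3-202, Itga6-203 and Itgb5-207 kept their direction with every sample left out in turn.

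The labels do not say whether replicate numbers pair the samples. Deviations of same-numbered lung and cell line samples correlated at -0.042, 0.082 and -0.083. With 3 samples per group such values cannot exclude a pairing. With the replicate number as a block, 13 integrins were higher and 4 lower, Itgav passing at -1.10, with 5 and 2 laminins and 4634 and 2526 genes in all. Itga11 and Itgb2l, with 88 and 35 counts over the lung samples and 10 and 0 over the cell line samples, did not pass the expression filter of the main fit. With no filter on low counts, 15 integrins were higher.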

Other observations

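By counts, Lama3 and Lama2 were read in lung partly through shorter annotated transcripts, whereas Lama1-201, Lama4-201 and Lama5-201 held 97.7 ± 2.06, 95.7 ± 4.37 and 91.0 ± 6.26% of the counts of their genes. Short transcripts weigh more in TPM than in counts, so these shares do not give the part of these transcripts in the TPM levels. Lama3-202, the transcript with 38 exons that starts inside the gene and encodes the short alpha-3A form of laminin-332, held 71.5, 90.3 and 80.8% of the Lama3 counts in lung replicates 1, 2 and 3, against 28.5, 9.70 and 19.2% for Lama3-201 with 75 exons. Lama2-208, a transcript with 22 exons from the end of the gene, held 42.5, 55.7 and 48.8% of the Lama2 counts. Lung replicate 2 had the highest share of both. In the cell line only replicate 1 reached 20 counts for either gene, so no comparison with lung was made.

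Of the 27 RefSeq promoters of 24 members, 14 held GAGGAA, 9 GGGCGG, 1 TGANTCA and 0 TATAAA in the 250 bases before the start, against 23.3, 32.7, 6.75 and 12.4% of all 32851 promoters. The promoters of Itga3 and of other genes with several starts share a gene, so they are not independent. No test was made on these counts.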
